A study of Mus musculus with 6 samples.

Results

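Cytochrome c oxidase, complex IV of the mitochondrial respiratory chain, was examined through 10 nuclear genes for its subunits in soleus, a postural muscle rich in oxidative fibres. A probe set was taken where the array annotation gave exactly 1 gene symbol and it was Cox4i1, Cox5a, Cox5b, Cox6a1, Cox6a2, Cox6c, Cox7a1, Cox7a2, Cox8a or Cox8b. That gave 15 probe sets of the 12488 on the array, with at least 1 for each of the 10 genes, out of 8252 genes named on it. The arrays came from 3 samples of male mice labelled BERKO, an estrogen receptor beta knockout, and from 3 male wild-type C57BL/6 samples (WT). All were total RNA of soleus with 1 array each. The labels give neither the strain of the knockout, nor the allele, the ages or a treatment. Nor is it stated that the samples are separate animals, so p-values here measure only the spread between these arrays, which may be technical. The series asks about skeletal muscle function and the role of this receptor.

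Complex IV takes electrons from cytochrome c and passes them to oxygen. Its catalytic core is encoded by mitochondrial DNA, and nuclear genes supply a ring of small subunits around it. For subunits 6a, 7a and 8, mice carry a form used in most tissues and another used mainly in heart and skeletal muscle. The muscle forms are Cox6a2, Cox7a1 and Cox8b, and the ubiquitous forms are Cox6a1, Cox7a2 and Cox8a. Cox4i1, Cox5a, Cox5b and Cox6c encode subunits without such a muscle form, although subunit 4 has a second form, Cox4i2, that was not analysed here.

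The DNA before the start sites of the muscle and ubiquitous genes is background to the isoform comparison and not a measurement of these arrays. A promoter window of 250 bases before the start was taken from RefSeq, build GRCm38.p6, and 7 of the 10 genes had one, all but Cox6a2, Cox4i1 and Cox6c. The windows of the ubiquitous genes Cox6a1, Cox7a2 and Cox8a held 26, 14 and 11 CG dinucleotides. Those of the muscle genes Cox7a1 and Cox8b held 4 and 1, against a median of 6 over the 32851 promoters of the table, whose middle 50% ran from 2 to 16. The subunit 7a pair is printed as an example, and both of its counts lie inside that middle 50%. The Cox7a1 window is chr7:30183921-30184170 on the plus strand, and the Cox7a2 window is chr9:79759854-79760103 on the minus strand. Capitals mark each CG, read 5′ to 3′ toward the gene.
Cox7a1: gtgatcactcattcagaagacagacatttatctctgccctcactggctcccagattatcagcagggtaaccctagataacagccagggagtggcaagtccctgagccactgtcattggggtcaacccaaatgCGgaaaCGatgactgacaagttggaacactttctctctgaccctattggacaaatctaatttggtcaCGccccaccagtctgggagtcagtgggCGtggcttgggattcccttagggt
Cox7a2: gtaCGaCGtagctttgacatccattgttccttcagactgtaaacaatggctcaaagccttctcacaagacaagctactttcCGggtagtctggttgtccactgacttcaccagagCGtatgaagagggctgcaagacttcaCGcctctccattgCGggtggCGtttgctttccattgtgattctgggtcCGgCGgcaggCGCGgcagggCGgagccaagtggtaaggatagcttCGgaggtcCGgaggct

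The windows were then searched on both strands for short motifs of factors that act on respiratory or muscle genes. Cox6a1 held the NRF1 core at 2 places and the GABPA core CCGGAAG at 1. These motifs occurred in 3.74% and 6.91% of all promoters, and in none of the other 6 windows. NRF1 and GABPA are activators of many nuclear respiratory genes. Cox8b held the myogenic E-box CAGCTG, a sequence bound by MyoD-type factors, 19 to 14 bases before the start. It occurred in 13% of all promoters and in none of the other 6 windows. The wider E-box CANNTG, which includes CAGCTG, occurred in 5 of the 7 windows and in 66.2% of all promoters. The TEAD core CATTCC was found in Cox5a alone, against 12.6% of all promoters. None of the 7 windows held the estrogen response element (0.0639% of all promoters), the ESRRA site AAGGTCA (4.08%), whose last letters can overlap that element, the TATA box TATAAA (12.4%) or the MEF2 motif (2.92%). A match is a match of letters, and no binding was measured. Cox6a1 and Cox8b are printed because they alone held the NRF1 core, the GABPA core or CAGCTG. They belong to different subunits, and these motifs mark single genes, not a contrast of muscle with ubiquitous forms. The Cox6a1 window is chr5:115348959-115349208 and the Cox8b window chr7:140900447-140900696, both on the minus strand, with the NRF1 core, the GABPA core or CAGCTG in capitals.
Cox6a1: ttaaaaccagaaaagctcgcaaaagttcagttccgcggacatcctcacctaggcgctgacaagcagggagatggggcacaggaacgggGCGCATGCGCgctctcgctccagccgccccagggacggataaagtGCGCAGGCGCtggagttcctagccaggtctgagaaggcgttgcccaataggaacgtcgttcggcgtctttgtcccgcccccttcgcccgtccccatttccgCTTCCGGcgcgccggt
Cox8b: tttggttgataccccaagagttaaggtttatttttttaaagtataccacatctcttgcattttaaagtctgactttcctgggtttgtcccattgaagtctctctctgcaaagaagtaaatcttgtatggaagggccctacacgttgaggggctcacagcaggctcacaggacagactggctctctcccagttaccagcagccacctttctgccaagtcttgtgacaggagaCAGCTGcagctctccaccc

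Each value is the signal intensity that the authors deposited for 1 probe set on 1 array, on a linear scale. Signals of different probe sets depend on their probes and are not levels of transcript to be set against each other. Testing required a signal over 39.4, the median of the whole table, on 3 or more of the 6 arrays, which 6369 probe sets reached. Among the 15 cytochrome oxidase probe sets 10 passed, from 8 genes. The trimmed mean signal was 100.1 on each array, and pairs of arrays had r of 0.957 to 0.971 over the probe sets, a correlation across genes that are not independent. The markers of striated muscle fixed for this report (Acta1, Ckm, Mb, Myh7, Tnni1 and Des) all passed this level. The Esr2 probe set, which would check the knockout, read 8.4, 3.9 and 6.2 in BERKO, against 2.2, 3.2 and 1.3 in WT. On 5 of 6 arrays this lay at or below 7.8, the floor under which values were not read, so the labels could not be checked from it.

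No cytochrome oxidase probe set passed the test over the whole array. With limma and Benjamini-Hochberg adjustment, 0 of 10 had an adjusted p under 0.05, against 0% of the 6369 tested, and the 10 adjusted p-values ran from 0.923 to 1.00. At an unadjusted p under 0.05 there was 1 of 10, Cox6a2, against 5.24% of all tested. Of the 10 probe sets 5 had a positive log2 difference of BERKO minus WT, against 46.8% of all tested, and their median difference was 0.027, against -0.016 over all tested. Of the 4 probe sets of the 3 muscle forms, 1 was higher and 3 were lower, with a median of -0.0039. Whether the muscle forms differ from each other was not tested. The 2 tested probe sets of ubiquitous forms had a median of 0.11. Groups did not overlap, with BERKO higher, for 3 of 10 probe sets: Cox6a2, Cox7a2 and Cox5b. Groups did not overlap with BERKO lower for 0 of 10, against 5.23% of all tested. The share of all tested with BERKO higher was 5.45%, but it was 43.8% among the 64 brightest probe sets, the top 1% by mean log2 signal. Of those 64 probe sets 61 had positive differences, with a median of 0.18. Cox6a2 and the brightest Cox6c probe set belong to these 64, and Cox5b and Cox7a2 stand 82nd and 104th in brightness. In the brightest 1274 probe sets, which hold all but the 2 Cox4i1 probe sets of the 10, the share was 11.9%. These subsets by brightness were chosen after the data had been seen. They include the cytochrome oxidase and other muscle genes set beside them, so they are not a separate background.

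**Figure D1:**
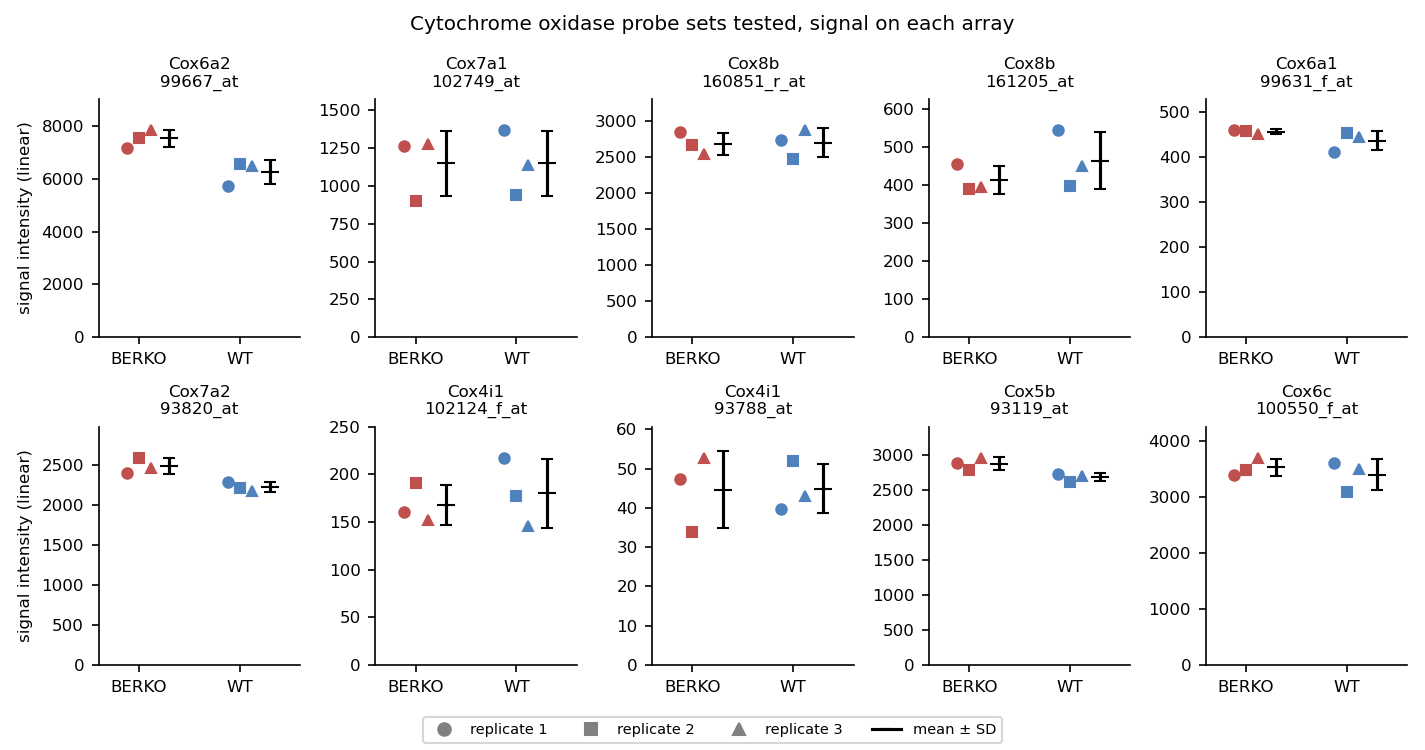
Signal intensity on a linear scale for the 10 tested cytochrome oxidase probe sets, with BERKO left of WT, a point for each array and a bar for the mean ± SD (n = 3 each). The 3 BERKO arrays lie above the 3 WT arrays for Cox6a2, Cox7a2 and Cox5b, and the groups overlap for the other 7 probe sets.

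Among the muscle forms, Cox6a2 was the member with the largest difference. Its product is the muscle form of subunit 6a, through which adenine nucleotides are known to act on the enzyme. Cox6a2 read 7192, 7566 and 7860 in BERKO, against 5724, 6562 and 6488 in WT. Every BERKO array was above every WT array, and the smallest gap between the groups was between BERKO replicate 1 and WT replicate 2. The means were 7539 ± 334 in BERKO and 6258 ± 464 in WT (SD, n = 3 each), a ratio of 1.21. The log2 difference was 0.27 ± 0.080 (SE; 95% interval 0.090 to 0.45; limma adjusted p = 0.923). It was 0.30 over the 4 arrays that share a title prefix and 0.21 between the other 2. Within the 64 brightest probe sets, 6 had a larger difference than Cox6a2. Quantile normalization brought its difference to 0.044 and cyclic loess to 0.099.

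Cox7a1, the muscle form of subunit 7a, had group means of 1149 ± 214 in BERKO and 1149 ± 216 in WT (SD, n = 3 each). Its signals were 1267, 902.0 and 1279 in BERKO, against 1370, 938.4 and 1139 in WT. Replicate 2 was the lowest in each group, and these 2 arrays share a title prefix whose meaning is not given. They read 902.0 to 938.4, and the other 4 read 1139 to 1370. The difference was -0.00095 ± 0.17 on the log2 scale (SE; 95% interval -0.39 to 0.39; limma adjusted p = 1.00). It was 0.027 over the 4 arrays sharing a prefix and -0.057 between the other 2. It ran from -0.14 without WT replicate 2 to 0.16 without BERKO replicate 2.

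Cox8b, the muscle form of subunit 8, had 2 probe sets, and neither separated the groups. Its brighter probe set, whose suffix r marks a design with relaxed rules, read 2848, 2676 and 2544 in BERKO, against 2748, 2482 and 2882 in WT. Its log2 difference was -0.0068 ± 0.091 (SE; 95% interval -0.21 to 0.20; limma adjusted p = 0.996). The dimmer probe set read 454.8, 390.1 and 396.7 in BERKO, against 545.6, 397.3 and 450.7 in WT. Here 2 of the BERKO arrays lay below all WT arrays, and BERKO replicate 1 lay within the WT range. Its difference was -0.16 ± 0.14 (SE; 95% interval -0.47 to 0.16; limma adjusted p = 0.958), so both probe sets of the gene gave values just or slightly below 0.

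**Figure D2:**
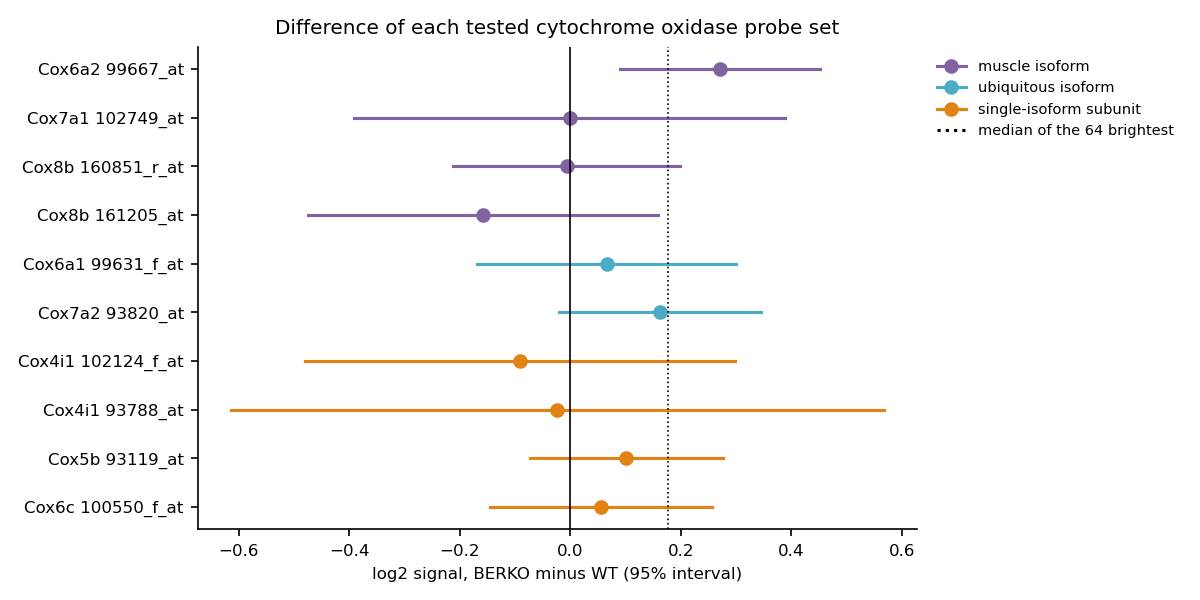
Difference of log2 signal, BERKO minus WT, with its 95% interval from limma, for each tested cytochrome oxidase probe set. The interval of Cox6a2 lies above 0, from 0.090 to 0.45, and the other 9 intervals include 0; the dotted line is the median difference of the 64 brightest probe sets, 0.18.

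Of the ubiquitous forms, Cox7a2 was the one whose groups did not overlap. Cox7a2 read 2404, 2590 and 2461 in BERKO, against 2287, 2207 and 2168 in WT. The lowest BERKO array was replicate 1 and the highest WT array was also replicate 1, and every BERKO value was above every WT value. Its means were 2485 ± 95.3 in BERKO and 2220 ± 60.7 in WT (SD, n = 3 each). The log2 difference was 0.16 ± 0.081 (SE; 95% interval -0.020 to 0.34; limma adjusted p = 0.926). It came to 0.061 after quantile normalization and to 0.044 after cyclic loess.

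Cox6a1, the ubiquitous form of subunit 6a, overlapped between the groups. Its single probe set carries the suffix f, which marks probes shared by several similar sequences, so the identity of the signal is uncertain. It read 459.3, 457.3 and 449.6 in BERKO, against 411.2, 451.6 and 443.5 in WT. The BERKO arrays were close together, and WT replicate 2 fell within their range. The log2 difference was 0.066 ± 0.10 (SE; 95% interval -0.17 to 0.30; limma adjusted p = 0.983). Cox8a, the ubiquitous form of subunit 8, could not be measured. Its probe set read 9.3, 2.1 and 1.9 in BERKO, against 10.9, 11.8 and 2.2 in WT, below the level of testing on every array.

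The muscle form was next set against the ubiquitous form of the same subunit on each array. The difference of 2 log2 signals is not a ratio of transcripts, but a common factor of an array drops out of it. A shift that depends on signal does not drop out. Cox6a2 and Cox6a1 stand 15th and 787th in brightness. The median difference was 0.18 in the 64 brightest probe sets and 0.054 in the brightest 1274. The part of such a shift in the values below was not tested. For subunit 6a the log2 of Cox6a2 minus that of Cox6a1 was 3.97, 4.05 and 4.13 in BERKO, against 3.80, 3.86 and 3.87 in WT. The groups did not overlap. The change was 0.20 (95% interval 0.063 to 0.35; exact two-sided permutation p = 0.1, adjusted p = 0.3 over 3 pairs), and 0.1 is the smallest p that 3 arrays against 3 allow. After quantile normalization the change was 0.0016 (exact permutation p = 1) and after cyclic loess 0.066.

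For subunit 7a the log2 of Cox7a1 minus that of Cox7a2 was -0.92, -1.52 and -0.94 in BERKO, against -0.74, -1.23 and -0.93 in WT. The groups overlapped, and replicate 2 was the lowest in both. The change was -0.16 (95% interval -0.84 to 0.51; exact two-sided permutation p = 0.6, adjusted p = 0.6 over 3 pairs). Without BERKO replicate 2 it was 0.033. Whether the changes of the 6a and 7a pairs differ from each other was not tested. For subunit 8, the Cox8a signal lay at or under the floor on 3 of 6 arrays, so the change of Cox8b minus Cox8a, 0.27 (exact permutation p = 0.4), has no reading as an isoform change. It was 0.95 with a lower floor and -0.0068 with a higher one.

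**Figure D3:**
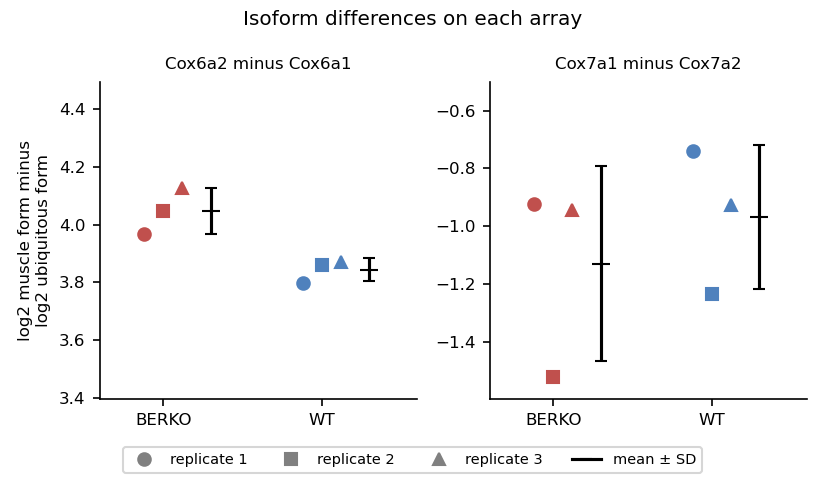
Log2 signal of the muscle form minus log2 signal of the ubiquitous form on each array for subunits 6a and 7a, BERKO left of WT, with the mean ± SD (n = 3 each) beside the points; both panels span the same length of axis. The subunit 6a values run from 3.97 to 4.13 in BERKO and from 3.80 to 3.87 in WT, and the subunit 7a values overlap.

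Of the subunits without a muscle form, Cox5b showed groups that did not overlap. Cox5b, a subunit on the matrix side that binds zinc, read 2893, 2792 and 2967 in BERKO, against 2738, 2626 and 2700 in WT. The gap between the lowest BERKO and the highest WT array was small, 2792 against 2738. Its log2 difference was 0.10 ± 0.077 (SE; 95% interval -0.073 to 0.28; limma adjusted p = 0.958), and it turned to -0.030 after quantile normalization and -0.025 after cyclic loess. Cox6c, a subunit that spans the inner membrane, was tested through its brightest probe set, which has the suffix f, so the identity of its signal is uncertain too. It read 3383, 3482 and 3693 in BERKO, against 3605, 3074 and 3499 in WT, with overlapping groups. Its log2 difference was 0.055 ± 0.089 (SE; 95% interval -0.15 to 0.26; limma adjusted p = 0.984), and it turned to -0.030 and -0.082 under those 2 normalizations.

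The dimmer probe sets of these genes gave no common picture. A dim Cox6c probe set, whose suffix i marks a set with fewer unique probes than the design asks for, read 14.3, 15.4 and 18.6 in BERKO, against 37.7, 32.6 and 29.0 in WT. The BERKO arrays were lower without overlap, but all 6 lay under the level of testing, and the brighter Cox6c probe set did not show this. The other Cox6c probe set read between 2.2 and 17.4 over the 6 arrays. Cox4i1, the general form of subunit 4, read 151.8 to 191.4 in BERKO and 145.7 to 217.6 in WT with its brighter probe set, another with the suffix f. Its second probe set read 33.9 to 52.8 in BERKO and 39.8 to 51.9 in WT. Their log2 differences were -0.091 ± 0.17 and -0.023 ± 0.26 (SE; limma adjusted p = 0.984 and 0.996), and the second was -0.61 between the 2 arrays with the other title prefix and 0.27 over the 4 sharing one. The 2 probe sets of Cox5a, which encodes a subunit on the matrix side, read 1.0 to 26.1 over the 6 arrays and were not tested.

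**Figure D4:**
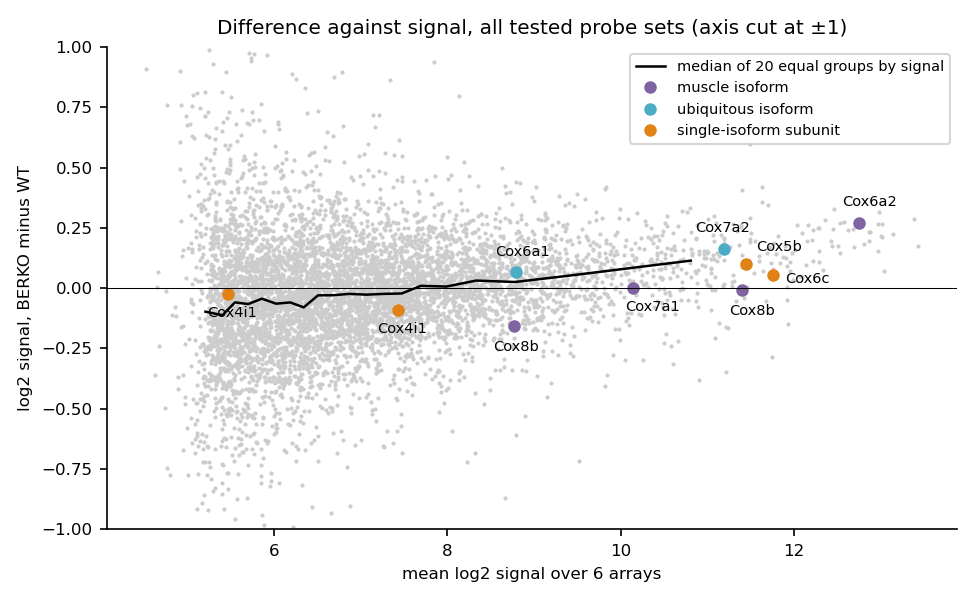
Difference of log2 signal, BERKO minus WT, against mean log2 signal for the 6369 tested probe sets in grey, with the 10 cytochrome oxidase probe sets in colour. A line gives the median of 20 equal groups by signal. Points beyond ±1, among them those of Myh4 and Actn3, are not drawn. The line climbs with signal, and Cox6a2 lies at the bright end, where 61 of 64 probe sets were above 0.

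Other genes of the same enzyme showed no separation. Of 11 further subunit genes listed for this report, 5 were on the array under a symbol of their own and 4 were tested, 1 higher and 3 lower in BERKO, with a median log2 difference of -0.042 that turned to 0.024 with median scaling. None passed (limma adjusted p = 0.984 to 0.999) and none had groups that did not overlap. Cox7b stood at -0.062 ± 0.11 (SE) and Cox6b1, on the side facing cytochrome c, at -0.045 ± 0.20. Cox7a2l, a relative of subunit 7a that links complexes III and IV, stood at -0.039 ± 0.14. Cox8c, known from testis, stood at 0.0010 ± 0.11 with its brighter probe set, which read 321.5 to 369.3 in BERKO and 348.9 to 350.7 in WT. The second Cox8c probe set read 1.3 to 6.9, so the identity of the brighter signal is uncertain. Cox6b2, also known from testis, was not tested, and its 3 probe sets read 0.6 to 45.1.

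Assembly factors of complex IV gave a median of 0.046 over 7 tested genes of 19 listed, 5 higher and 2 lower, with 0 passing (limma adjusted p = 0.958 to 0.999). The median turned to -0.021 over the 4 arrays sharing a title prefix and to -0.012 without BERKO replicate 2, and it was 0.0011 without the filter and 0.11 with median scaling. Coa3, which stabilises the newly made catalytic subunit, read 409.2, 403.5 and 383.8 in BERKO, against 365.2, 352.2 and 347.2 in WT. Its groups did not overlap, and its log2 difference was 0.17 ± 0.11 (SE). Cox18, which inserts a core subunit into the membrane, stood at 0.13 ± 0.13, Lrpprc, which stabilises mitochondrial mRNA, at 0.11, and Surf1, whose loss in humans causes Leigh syndrome, at 0.046.

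Cytochrome c and complex III feed complex IV with electrons. Of 10 tested genes of 11 listed, 9 had positive log2 differences, with a median of 0.14, and 4 had groups that did not overlap with BERKO higher. These counts stand beside 46.8% positive and 5.45% without overlap over all tested, and 9 of the 10 genes lie in the brightest 1274 probe sets, where 65.4% were positive and 11.9% did not overlap. None passed (limma adjusted p = 0.923 to 0.971), and the median was 0.058 after quantile normalization and 0.035 after cyclic loess. Cyc1, the cytochrome c1 of complex III, read 5136, 5291 and 5400 in BERKO, against 4820, 4716 and 4671 in WT. Uqcrq and Uqcrc1, further complex III subunits, had log2 differences of 0.19 each. Cycs, cytochrome c itself and the substrate of complex IV, went the other way. It read 310.4, 279.1 and 344.4 in BERKO, against 511.7, 342.0 and 410.5 in WT, and BERKO replicate 3 lay just above WT replicate 2. Its log2 difference was -0.42 ± 0.16 (SE; limma adjusted p = 0.923).

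Regulators of nuclear respiratory and muscle genes had a median of 0.088 over 11 tested genes of 16 listed, 7 higher and 4 lower, with 0 passing (limma adjusted p = 0.923 to 0.999). The sign of this median depended on the arrays, with -0.063 without BERKO replicate 2 and -0.070 without WT replicate 2. Mef2c, a transcription factor of muscle genes, read 641.8, 619.2 and 625.8 in BERKO, against 527.5, 549.8 and 469.8 in WT with its brightest probe set. Its difference was 0.29 ± 0.11 (SE), while its other 3 probe sets gave 0.28, 0.24 and -0.21. Mef2a stood at 0.21 ± 0.11, Tfb2m, a mitochondrial transcription factor, at -0.39 ± 0.16 and Myog, the myogenic factor myogenin, at 1.21 ± 0.45 with groups that overlapped. Gabpa, whose core motif stands in the Cox6a1 window, read 57.8 to 85.8 in BERKO and 68.9 to 110.6 in WT with its brighter probe set.

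Muscle and other cell types were read beside these values, since fewer cells of a type and less RNA per cell cannot be told apart in whole muscle. The summed signal of 6 striated muscle markers was 39247 to 40446 in BERKO and 30401 to 38326 in WT, without overlap, and all 6 had positive differences, while 2 of the 6 genes did not overlap on their own. Of these 6 genes 4 belong to the 64 brightest probe sets, where 95.3% were positive and 43.8% did not overlap with BERKO higher. Slow fibre genes had a median log2 difference of 0.20 over 12 tested genes and fast fibre genes 0.23 over 12, with 10 and 9 higher, and 0 passed (limma adjusted p from 0.923 to 0.997). The slow fibre median turned to -0.014 after quantile normalization and was 0.024 after cyclic loess, and the fast fibre median was 0.035 and 0.081. Of the 12 genes in each list, 9 slow and 5 fast ones belong to the 64 brightest probe sets. The shares over those 64 therefore include these muscle genes and are not a separate background. High signal and muscle identity cannot be told apart there. The slow fibre genes with the smallest p, Fhl1, Ankrd2, Myl3 and Csrp3, had log2 differences of 0.33, 0.60, 0.21 and 0.83. In the fast list Casq1, Myl1 and Tnnt3 stood at 0.42, 0.27 and 0.24. Groups did not overlap with BERKO higher for 2 slow and 5 fast genes, against 5.45% of all tested. That share was 11.9% in the brightest 1274 probe sets, which hold 11 genes of each list. The 3 fast fibre genes with negative differences included those with the largest size. Myh4, the myosin of the fastest fibres, read 211.0, 790.7 and 73.8 in BERKO, against 1610, 3671 and 499.4 in WT, with overlap and a log2 difference of -2.64 ± 0.86 (SE; limma adjusted p = 0.923). Replicate 2 was the highest and replicate 3 the lowest in each group. With adjacent title numbers as a block, the limma adjusted p of Myh4 was 0.0031. Actn3, a fast fibre actinin, stood at -1.48 and Pvalb, the calcium buffer parvalbumin, at -0.32 (limma adjusted p = 0.923 and 0.960). Their part in the Cox6a2 and Cox7a2 values was not tested. Of adipocyte markers, 4 of 6 listed were on the array and all 4 were lower, while 46.8% of all tested were higher. Their summed signals, 2715 to 3222 in BERKO and 2971 to 3877 in WT, overlapped. Lpl alone read 2397 to 3428 over the 6 arrays, so the sum mostly follows it. Lpl stood at -0.042, Lep at -0.058, Fabp4 at -0.49 and Adipoq at -0.90 ± 0.38 (SE; limma adjusted p = 0.923). Adipoq read 70.3, 120.1 and 75.8 in BERKO, against 81.4, 231.8 and 222.1 in WT. The brown fat marker Ucp1, of interest because Cox7a1 and Cox8b are also used in brown fat, read 3.9 to 17.5 in BERKO and 4.6 to 16.2 in WT over its 2 probe sets. The summed signals of the endothelial, fibroblast, macrophage, smooth muscle, nerve, blood and brown fat lists also overlapped between the groups. In the blood list WT replicate 1 stood apart, with Hba-a1 at 4500 against 1662 to 2277 on the other arrays. Most of the brown fat sum, 257 to 367 over the 6 arrays, was Ppara, at 140 to 239.

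Patterns over the arrays were described by Pearson's r of log2 signals over the 6 arrays, against 5706 or 5707 tested probe sets of other named genes. With 6 arrays, close matches turn up for any probe set. Those closest to Cox6a2 were Micos10, a gene of the mitochondrial inner membrane, at 0.9995, Cd276 at 0.998 and Rpl6 at 0.996. Egln2, Rhoa and Prkar1a were closest to Cox7a2, with r from 0.977 to 0.999. Cox7a1 was closest to Pbx3, Pdap1 and the mitochondrial ribosome gene Mrps33, with r from 0.986 to 0.988. Cox8b was closest to Lmo4, Tango2 and Tmbim1, with r from 0.985 to 0.993, and Cox6a1 to Rax, Dpf3 and Cndp2, with r from 0.968 to 0.977. Between the muscle forms themselves, Cox6a2 correlated with Cox7a1 at -0.27 and with the brighter Cox8b probe set at -0.27, and these 2 correlated with each other at 0.39. The dimmer Cox8b probe set correlated with Cox6a2 at -0.80, with Cox7a1 at 0.71 and with the brighter Cox8b probe set at 0.59. With the ubiquitous forms Cox6a1 and Cox7a2, Cox6a2 correlated at 0.81 and 0.73. Cox7a1 stood at -0.54 and -0.13 with them, and the brighter Cox8b probe set at -0.17 and -0.14.

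**Figure D5:**
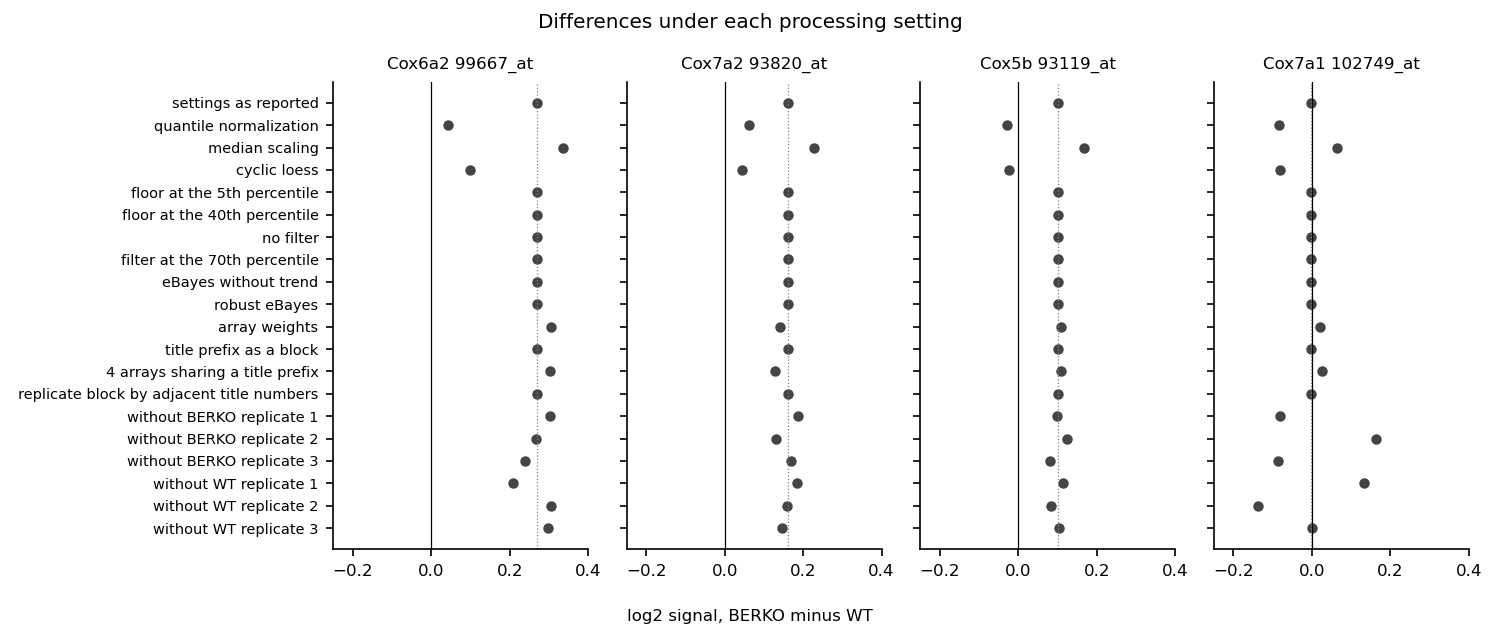
Difference of log2 signal, BERKO minus WT, for Cox6a2, Cox7a2, Cox5b and Cox7a1 under the settings as reported and each of 19 alternatives, with a solid line at 0 and a dotted line at the reported value. Cox6a2 and Cox7a2 stay above 0 in all 19, nearest 0 after quantile normalization or cyclic loess, Cox5b crosses 0 under these 2 normalizations, and Cox7a1 lies on both sides. The floor, filter, variance model and block settings could not move these differences, so their points carry no information on stability.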

How the data were processed

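The deposited values were signal intensities on a linear scale, 1 for each of 12488 probe sets on 6 arrays. The authors had scaled them to a common level, since the mean without the lowest and highest 2% was 100.1 on each array. The software and background correction are not given in the sources used here. Genes were named from the array's annotation table where it gave 1 symbol (10833 probe sets, against 396 with several and 1193 with none, after 66 controls were set aside). A RefSeq look-up changed 0 symbols.

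Values under 7.8, the 20th percentile, were set to it and taken to log2. BERKO minus WT was fitted with limma 3.58.1 in R 4.3.3 (lmFit, eBayes with an intensity trend) over 6369 probe sets, as a two-sided test adjusted by Benjamini-Hochberg over the whole set. Precision is limited by the number of arrays, with a median standard error of 0.18 on the log2 scale. Each gene of a list was read through its brightest probe set. All measured further subunits were named. From each other list, apart from the cell type markers, up to 4 genes with the smallest p were named. Gabpa, Ucp1, Actn3, Pvalb, Lpl, Lep, Fabp4, Adipoq, Hba-a1, Ppara and second probe sets of genes outside the 10 were added after their values were seen. The members and lists were chosen with earlier results of these data known. Steps were tested on simulated data. Figures used matplotlib 3.10.9 in Python 3.11.15.

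Same-numbered samples have adjacent title numbers. Their deviations from the group means correlated at -0.0052, 0.035 and -0.0029, so the numbers were not taken as pairs. Correlations over all tested probe sets cannot exclude a pairing that affects some genes. Alternatives covered normalization, floor, filter, variance model, array weights, the title prefix, a block for adjacent numbers, and leaving out each array. Protein sequences were not used here.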

Additional observations from a re-analysis of the deposited data

How the results depend on the processing

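No cytochrome oxidase probe set passed the adjusted threshold under any of the alternatives run. The count of probe sets called over the array, 0 as reported, was 1 without the filter (Hoxd1), 1 with adjacent title numbers as a replicate block (Myh4) and 0 to 1 with an array left out (Tuba1a, without BERKO replicate 1). None is a cytochrome oxidase gene, and Hoxd1 and Tuba1a were named after their values were seen. The block changed no other call. Over the 6 samples, 2 correlated best with the sample of their own number in the other group.

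The count of tested cytochrome oxidase probe sets higher in BERKO, 5, became 8 with median scaling, and leaving out an array gave 5 to 8, with 8 without WT replicate 1. The differences below crossed 0. With median scaling Cox7a1 stood at 0.065, the brighter Cox8b probe set at 0.059 and the dimmer Cox4i1 probe set at 0.043. After quantile normalization the dimmer Cox4i1 probe set stood at 0.048, Cox5b at -0.030 and Cox6c at -0.030, and after cyclic loess at 0.050, -0.025 and -0.082. With array weights Cox7a1 stood at 0.021 and the dimmer Cox4i1 probe set at 0.13. Over the 4 arrays sharing a title prefix Cox7a1 stood at 0.027, the dimmer Cox4i1 probe set at 0.27 and Cox6c at -0.0068. With an array left out, Cox7a1 ran from -0.14 to 0.16, the brighter Cox8b probe set from -0.067 to 0.041, Cox4i1 from -0.24 to 0.054 (brighter) and from -0.16 to 0.16 (dimmer), and Cox6c from -0.014 to 0.10. In those fits Cox6a2 ran from 0.21 to 0.31 and Cox7a2 from 0.13 to 0.19.

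The subunit 6a isoform change kept its sign under all 14 alternatives run on it. Of these, median scaling, the floors and the blocks could not move it. With an array left out it ran from 0.17 to 0.24, the subunit 7a change from -0.30 to 0.033, and the subunit 8 change from 0.090 to 0.50. The subunit 8 change was -0.0068 with the higher floor, where Cox8a lies at the floor on all arrays. The median of cytochrome c and complex III genes was 0.058 after quantile normalization, 0.035 after cyclic loess and 0.21 with median scaling. That of the regulators was 0.0018 without the filter, -0.12 with array weights, -0.064 over the 4 arrays sharing a title prefix and -0.070 to 0.18 with an array left out. That of slow fibre genes was -0.014 after quantile normalization. Some values kept their sign but not their size, with Cox6a2 at 0.044 and the subunit 6a change at 0.0016 after quantile normalization. The cause of these shifts was not tested. Signals near background (Cox8a, Cox5a and the dim Cox6c probe sets) set the limit of what could be read.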
